A study of Mus musculus with 35 samples.

Results

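Alveolar macrophages are the resident phagocytes of the air spaces. They settle in the lung around birth, when GM-CSF from the alveolar epithelium and TGF-beta induce the nuclear receptor PPAR-gamma, and they then renew themselves in place. Their best known tasks are the breakdown of surfactant lipid and the clearance of particles and bacteria from the alveoli. The genes described here are 10 transcripts by which these cells are commonly recognised in mice: Pparg, Marco, Ear1, Ear2, Siglecf, Cidec, Krt79, Atp6v0d2, Abcg1 and Fabp1. They were chosen by gene symbol, and all 10 were found among the 57186 genes of the deposited count table. All 10 also passed the filter on low counts, as did 20606 genes in all, and each had reads in every library.

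The samples were 35 whole-lung RNA libraries in 12 groups of 3, except for 1 group of 2. Mice were studied at day 2, 5 or 7 after naphthalene, a compound that injures the club cells of the airway, or were untreated mice carrying the same day labels. At each day the mice were KO (RORaf/fIl7riCre, where Cre recombinase from the Il7r locus acts on a loxP-flanked Rora gene in cells that express or once expressed Il7r) or control (RORaf/f). KO mice at day 7 after naphthalene are the group of 2. All groups carry the floxed Rora alleles, and the control label names no Cre, so the loss of RORa and the Cre at Il7r cannot be told apart. The series gives an age of 14 days without saying to which day label it belongs. No label says that libraries came from separate animals, and p-values measure the spread between these libraries.

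Library totals ran from 10696690 to 21062713 reads, so that 1 read was worth 0.0486 to 0.0885 CPM (counts scaled to the size of the library). Lung markers were abundant in all libraries, with Sftpc, a surfactant protein gene, at a mean of 13400 CPM. Among the control mice of day 5, untreated replicate 1 stood apart: the microglial marker P2ry12 reached 159 CPM there and 3.92 CPM in the next highest library, and results that rest on it are also given without it. Library names carry letters whose meaning is not stated. At days 2 and 5 naphthalene and untreated libraries carry different letters, so treatment and letter cannot be told apart there, whereas all day 7 libraries carry the same letter. No letter is shared between days, so day label and letter cannot be told apart in any comparison of days. For Rora itself, counted over the whole lung, the log2 difference KO minus control was 0.11 ± 0.12 (SE) after naphthalene and 0.18 ± 0.12 in untreated mice (edgeR adjusted p = 0.874 and 0.612). Counts per gene do not show whether the floxed part was lost.

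The reads behind each gene set its precision. Over the 35 libraries Abcg1 had 1013 to 2509 reads per library and Fabp1 5 to 76, so that counting error weighs most on Fabp1. The biological coefficient of variation fitted per gene was lowest for Abcg1 (0.163) and Ear2 (0.178) and highest for Fabp1 (0.459), with Krt79 at 0.357 and Cidec at 0.316. Fabp1 also had the widest range between libraries, 0.275 to 4.61 CPM, and Abcg1 the narrowest, 74.6 to 146 CPM. In whole lung, fewer cells of a type and less RNA per cell cannot be told apart, and some of these genes are also used elsewhere: Pparg and Cidec in fat cells, Siglecf in eosinophils, Abcg1 in many cells that export cholesterol.

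**Figure D1:**
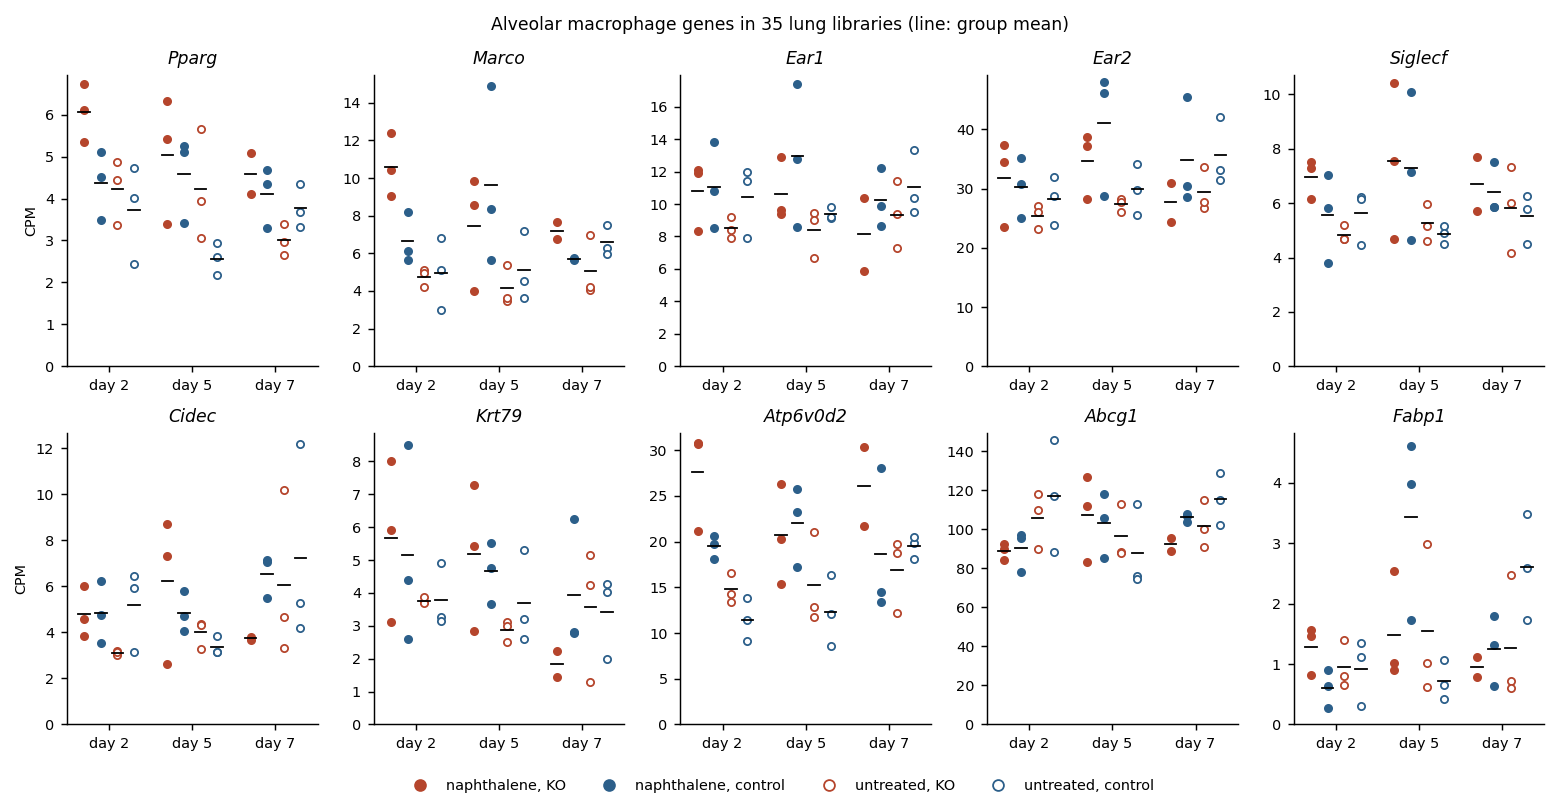
Level in CPM (y axis, from 0) of each of the 10 genes in the 35 libraries by day (x axis). Points are libraries, lines are group means, filled points are naphthalene and open points untreated mice, and red is KO and blue control. At day 2 every Atp6v0d2 point after naphthalene (18.1 to 30.8 CPM) lies above every untreated point (9.13 to 16.6 CPM), while at day 7 the points of all 10 genes overlap.

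At day 2, averaged over both genotypes, 2 of the 10 genes were higher after naphthalene: Atp6v0d2, a subunit of the proton pump that acidifies lysosomes, and Marco, a scavenger receptor that binds bacteria and dust. Atp6v0d2 had 30.8, 21.2 and 30.7 CPM in KO mice and 20.6, 19.7 and 18.1 CPM in control mice after naphthalene. Untreated KO mice had 16.6, 13.4 and 14.3 CPM of Atp6v0d2 and untreated control mice 13.8, 11.4 and 9.13 CPM. The 6 naphthalene libraries thus lay above the 6 untreated ones without overlap; of all genes tested, 3.05% separated upwards in this way. Atp6v0d2 averaged 23.5 ± 5.71 CPM after naphthalene and 13.1 ± 2.56 CPM in untreated mice (SD, n = 6 each), a log2 change of 0.83 ± 0.19 (SE) or 1.78-fold (95% interval 1.36 to 2.34; edgeR adjusted p = 0.0037).

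Marco had 12.4, 9.02 and 10.4 CPM in KO mice and 8.19, 5.66 and 6.15 CPM in control mice at day 2 after naphthalene. Its untreated levels were 5.14, 4.19 and 4.96 CPM in KO mice and 5.11, 6.81 and 3.01 CPM in control mice. All 3 KO libraries after naphthalene lay above all untreated ones, whereas the control libraries of both treatments overlapped. The log2 change of Marco was 0.79 ± 0.23 (1.73-fold, 95% interval 1.25 to 2.41; edgeR adjusted p = 0.0257). Among all genes, 9.9% were called at an adjusted p under 0.05 in this comparison and 5.6% were called higher, against 2 of the 10 here, both higher. The call of Atp6v0d2 held in each of 12 fits that left out 1 library. That of Marco was lost in 5 of 12, with adjusted p from 0.0505 to 0.0828: without replicate 1 of the control or replicate 1 or 3 of the KO mice after naphthalene, and without replicate 3 of the untreated control or replicate 2 of the untreated KO mice.

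The other 8 genes were not called at day 2, and their log2 changes ran from -0.32 ± 0.13 for Abcg1 to 0.53 ± 0.31 for Krt79, a keratin gene whose transcript marks these cells in mice. Abcg1, which moves cholesterol out of cells, was the one furthest below 0: it had 78.4 to 97.1 CPM (median 91) after naphthalene and 88.4 to 146 CPM (median 114) in untreated mice, and its edgeR adjusted p was 0.129. None of the 6 naphthalene libraries exceeded the untreated median of Abcg1. The median change over the 10 genes was 0.26, beside -0.04 over all genes tested.

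Taken by genotype at day 2, none of the 10 genes passed edgeR's threshold in either: in KO mice 2 of the 10 had an unadjusted p under 0.05 and DESeq2 called 2, and in control mice 1 had such a p and DESeq2 called 0. Of all genes, 15.4% in KO mice and 13.3% in control mice had such a p, DESeq2 called 3.97% and 4.91%, and edgeR called 2.74% and 3.76%. Marco changed by 1.16 ± 0.33 in KO mice (edgeR adjusted p = 0.0521) and by 0.43 ± 0.33 in control mice (edgeR adjusted p = 0.684), and the difference between the genotypes, 0.73 ± 0.47, had an unadjusted p of 0.125. In KO mice the 3 naphthalene libraries lay above all 3 untreated ones for Pparg, Marco, Siglecf, Cidec and Atp6v0d2, 5 genes of 10, as they did for 9.92% of all genes. In control mice this held for Atp6v0d2, 1 gene of 10, and for 10.7% of all genes.

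At day 5 all 10 genes had a log2 change above 0, with a median of 0.57 beside -0.02 over all genes, and 2 of them passed the test, again Marco and Atp6v0d2. Of all genes 7.16% were called and 4.34% were called higher. At an unadjusted p under 0.05 there were 8 of the 10, and 26.4% of all genes. For none of the 10 did the 6 naphthalene libraries all lie above the 6 untreated ones, as they did for 1.74% of all genes. Marco had 3.98, 9.86 and 8.57 CPM in KO mice and 14.9, 8.37 and 5.66 CPM in control mice after naphthalene. In untreated mice it had 5.4, 3.48 and 3.61 CPM in the KO and 7.2, 3.65 and 4.53 CPM in the control genotype. The groups overlapped through replicate 1 of the KO mice after naphthalene, which was low, and replicate 1 of the untreated control mice, which was high. The log2 change of Marco was 0.88 ± 0.23 (1.84-fold, 95% interval 1.32 to 2.56; edgeR adjusted p = 0.0207), and 1.04 ± 0.24 (adjusted p = 0.0132) without the library that stood apart.

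Atp6v0d2 had 15.4, 20.3 and 26.3 CPM in KO mice and 23.2, 25.7 and 17.2 CPM in control mice at day 5 after naphthalene. Untreated mice had 21.1, 12.9 and 11.7 CPM in the KO and 12.1, 8.57 and 16.3 CPM in the control genotype. All 6 naphthalene libraries exceeded the untreated median of 12.5 CPM, and 3 exceeded every untreated library. Its log2 change was 0.64 ± 0.19 (1.56-fold, 95% interval 1.19 to 2.04; edgeR adjusted p = 0.0404), and 0.63 ± 0.21 (adjusted p = 0.0855) without the library that stood apart. In 12 fits that left out 1 library each, Marco lost its call in 5 (edgeR adjusted p from 0.0607 to 0.095): without replicate 1 of the control or replicate 2 or 3 of the KO mice after naphthalene, and without replicate 2 of either untreated genotype. Atp6v0d2 lost its call in 8 (adjusted p from 0.0748 to 0.126) and kept it without replicate 3 of the control or replicate 1 of the KO mice after naphthalene, and without replicate 3 of the untreated control or replicate 1 of the untreated KO mice. Without replicate 1 of the KO mice after naphthalene 6 of the 10 genes were called, as were 19.8% of all genes in that fit. With the day 5 groups fitted alone neither Marco nor Atp6v0d2 was called, at 0.89 ± 0.28 for Marco and 0.65 ± 0.20 for Atp6v0d2 (edgeR adjusted p = 0.0936 and 0.0891).

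Fabp1, a fatty acid carrier best known from liver and gut, passed the test at day 5 in control mice, as the 1 gene of the 10 called in that genotype, where 2.39% of all genes were called and 1.1% were called higher. It had 3.98, 4.61 and 1.73 CPM in control mice after naphthalene and 0.655, 0.422 and 1.07 CPM in untreated control mice. The 2 groups did not overlap, nor did those of Pparg, Cidec and Atp6v0d2; together these are 4 of the 10 genes, where 13.5% of all genes separated upwards. The log2 change of Fabp1 was 2.22 ± 0.60 (4.66-fold, 95% interval 2 to 10.8; edgeR adjusted p = 0.0435). In KO mice it had 1.01, 0.896 and 2.54 CPM after naphthalene and 2.99, 1.02 and 0.612 CPM untreated, with both groups overlapping, a log2 change of -0.04 ± 0.57 (adjusted p = 0.982).

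The genotype difference in the response of Fabp1 at day 5 was -2.26 ± 0.83 (95% interval -3.95 to -0.57), with an unadjusted p of 0.0104 and an edgeR adjusted p of 0.544, and it ran from -2.89 to -1.36 over 12 fits that left out 1 library. Without the filter on low counts it was -2.25 and was called (edgeR adjusted p = 0.0385). The call of Fabp1 in control mice was lost in 5 of 6 fits without 1 library (adjusted p 0.0539 to 0.209), and was kept without replicate 3 of the untreated control mice. Without the library that stood apart the change was 2.15 ± 0.69 (adjusted p = 0.209), and with the compared groups fitted alone it was 2.23 ± 0.47 (adjusted p = 0.0883). Of 8 markers of liver cells (Alb, Apoa1, Apoa2, Ttr, Serpina1a, Ambp, Fgb and Cyp2e1) the summed level was 7.95 to 31.9 CPM at day 5 after naphthalene and 4.84 to 8.58 CPM in untreated mice, over both genotypes. Of these 8, 4 passed the filter and 1 was called: Cyp2e1, which club cells also express, rose by 1.38 ± 0.36 (edgeR adjusted p = 0.0173), and none was called without the library that stood apart. Cyp2e1 made up most of the sum, with means of 11.1 CPM in KO and 21.1 CPM in control mice after naphthalene, and 6.42 CPM in KO and 5.36 CPM in control mice left untreated. The median change of the 4 was 0.32. Alb, which was not called, averaged 0.148 CPM in KO mice after naphthalene against 0.514 CPM in untreated KO mice, and 0.741 CPM in control mice after naphthalene against 0.216 CPM in untreated control mice. Apoa1 and Apoa2, also not called, went other ways. In KO mice they averaged 0.422 and 0.492 CPM after naphthalene, and 0.182 and 0.378 CPM untreated. In control mice they averaged 0.236 and 0.312 CPM after naphthalene, and 0.234 and 0.522 CPM untreated. Serpina1a and Fgb had 1 read each over all 35 libraries, and the part of these markers in the result was not tested.

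In KO mice at day 5 none of the 10 genes was called by edgeR or DESeq2, and 1 had an unadjusted p under 0.05. Of all genes edgeR called 1.32%, and 12.8% had such a p. The largest changes there were those of Marco and Krt79, both 0.85 (SE 0.33 and 0.44; edgeR adjusted p = 0.273 and 0.422). Ear2 was the 1 gene whose KO libraries separated, where 5.81% of all genes separated upwards.

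The remaining genes followed the same direction at day 5 without passing the test. Siglecf, a sialic acid-binding receptor of alveolar macrophages and eosinophils, averaged 7.42 ± 2.5 CPM after naphthalene and 5.05 ± 0.535 CPM in untreated mice (SD, n = 6 each), a log2 change of 0.56 ± 0.19 (edgeR adjusted p = 0.072). Pparg, the receptor on which the identity of the cells depends, averaged 4.81 ± 1.18 CPM after naphthalene and 3.4 ± 1.25 CPM in untreated mice, a log2 change of 0.54 ± 0.19 (adjusted p = 0.0753). DESeq2 called both (adjusted p = 0.041 for Siglecf and 0.0449 for Pparg), and so 4 of the 10 genes at day 5, where it called 10.5% of all genes. Of 9 fat cell markers (Adipoq, Plin1, Plin4, Cfd, Retn, Lep, Cidea, Ucp1 and Elovl3) 7 were tested, and all 7 had log2 changes above 0 at day 5 (median 0.40). Cfd was called higher, as were 4.34% of all genes, and none of the 7 was called without the library that stood apart. The 9 summed to 14.5 to 36.4 CPM after naphthalene and 10.3 to 17.3 CPM in untreated mice. Their part in the values of Pparg and Cidec was not tested. Of 7 eosinophil markers (Epx, Prg2, Prg3, Ccr3, Il5ra, Alox15 and Cd300a) 5 were tested and none was called at day 5 by edgeR, with 2 at an unadjusted p under 0.05 and 1 called lower by DESeq2. Together they summed to 14.5 to 20.2 CPM after naphthalene and 16.3 to 23.7 CPM in untreated mice of day 5. The granule genes Epx and Prg3 had 21 and 20 reads in all 35 libraries together.

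Ear1 and Ear2 encode ribonucleases first described in eosinophils and made in quantity by mouse alveolar macrophages. At day 5 Ear2 averaged 37.9 ± 8.33 CPM after naphthalene and 28.6 ± 3.13 CPM in untreated mice, and Ear1 11.8 ± 3.28 CPM after naphthalene and 8.88 ± 1.12 CPM in untreated mice (SD, n = 6 each); both log2 changes were 0.40, with SE 0.18 for Ear1 and 0.15 for Ear2 (edgeR adjusted p = 0.147 and 0.0808). Their values are uncertain as those of separate genes, because the copies are nearly identical. Their longest open reading frames share 448 of 468 aligned bases (95.7%), and Ear2 and the related Ear10 share 97.0%, so that reads may have been split between them by the authors' counting. Ear10 had 25 reads in all. The bases before the start of transcription are closer still, with 246 of 248 aligned bases identical (99.2%) over the 250 bases. The first 100 of those 250 bases, from 250 to 151 before the start, are shown because they hold both differing bases, which stand in capitals. The sequences are those of RefSeq on GRCm38.p6, read along each gene's own strand (Ear1 at chr14:43819790-43819889, minus strand; Ear2 at chr14:44102404-44102503, plus strand).
Ear1: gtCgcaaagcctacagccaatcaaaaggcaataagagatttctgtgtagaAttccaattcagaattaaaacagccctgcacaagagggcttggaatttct
Ear2: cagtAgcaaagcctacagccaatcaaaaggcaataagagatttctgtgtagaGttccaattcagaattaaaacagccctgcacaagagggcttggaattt

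At day 7 none of the 10 genes was called by edgeR or DESeq2 over both genotypes and none had an unadjusted p under 0.05, while 0.374% of all genes were called. None separated over both genotypes either, where 0.98% of all genes separated upwards. The log2 changes ran from -0.74 ± 0.45 for Fabp1 to 0.36 ± 0.21 for Pparg, with 4 of 10 above 0. Atp6v0d2 had 21.7 and 30.4 CPM in KO mice and 14.5, 13.4 and 28.1 CPM in control mice after naphthalene, and 12.2, 19.7 and 18.7 CPM in KO mice and 19.8, 20.5 and 18.1 CPM in control mice left untreated. Marco likewise had 7.66 and 6.74 CPM in KO mice and 5.69, 5.67 and 5.75 CPM in control mice after naphthalene, against 4.03, 4.19 and 6.96 CPM in untreated KO and 7.53, 6.28 and 5.95 CPM in untreated control mice. For Marco all 3 control libraries after naphthalene were just below all 3 untreated ones, which 3.01% of all genes showed. In KO mice the libraries of Pparg and Atp6v0d2 after naphthalene were above all untreated ones, where 8.9% of all genes were. By genotype no gene of the 10 was called at day 7 by either tool, where edgeR called 0.0728% of all genes in KO mice and 0.0388% in control mice. At an unadjusted p under 0.05 there was 1 of the 10 in KO mice and 0 in control mice, beside 6.24% and 2.86% of all genes.

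**Figure D2:**
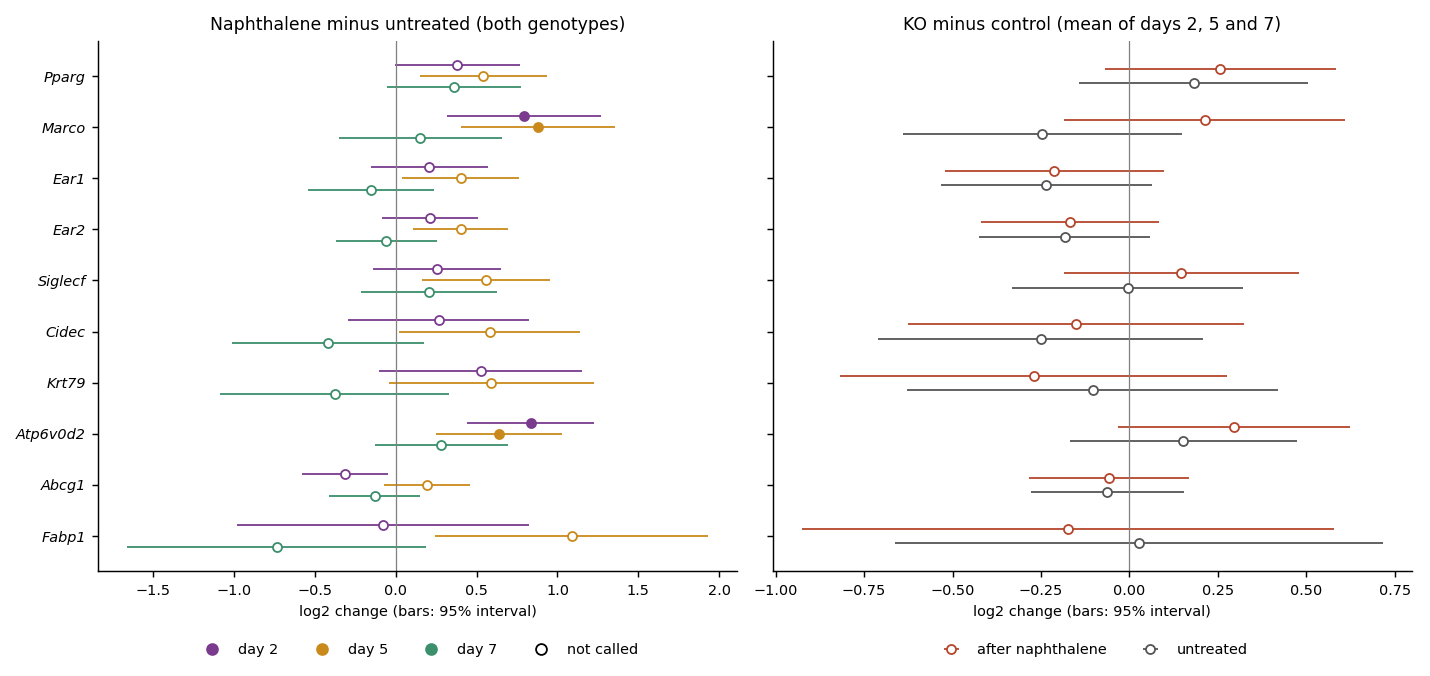
Log2 change (x axis) with its 95% interval for each of the 10 genes (y axis), naphthalene minus untreated at days 2, 5 and 7 on the left and KO minus control, averaged over the days, on the right. Filled points passed an adjusted p of 0.05: Marco at 0.79 (day 2) and 0.88 (day 5) and Atp6v0d2 at 0.83 and 0.64, and the intervals of all 10 genes include 0 on the right.

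A difference of the naphthalene effect between days was called for none of the 10 genes by edgeR or DESeq2. The difference day 5 minus day 2 was above 0 for 9 of 10 genes (median 0.19) and for 50.6% of all genes (median 0.006). Of the 10, 1 had an unadjusted p under 0.05, where 13% of all genes had one, and 0.67% of all genes were called. Day 7 minus day 2 was below 0 for 9 of 10 (median -0.46), whereas 54.4% of all genes were above 0 (median 0.035). None of the 10 had an unadjusted p under 0.05 there, beside 11.1% of all genes, and 1.01% of all genes were called. Both differences share the day 2 libraries, and the levels of the 10 genes were correlated over libraries, so their directions are not independent.

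Between genotypes edgeR called none of the 10 genes and 0 of 20606 genes in all (0%), in either treatment. The differences KO minus control, averaged over the 3 days, ran from -0.27 ± 0.27 for Krt79 to 0.30 ± 0.16 for Atp6v0d2 after naphthalene and from -0.25 ± 0.23 for Cidec to 0.18 ± 0.16 for Pparg in untreated mice. None of the 10 had an unadjusted p under 0.05 in either, whereas 1036 and 1759 genes did, and DESeq2 called none of the 10 and 0 and 1 of all genes. The interval of Atp6v0d2 after naphthalene reached from -0.03 to 0.63, and that of Abcg1, the narrowest, from -0.28 to 0.17. Differences within these intervals were not excluded here. The genotype difference in the naphthalene effect was called for 0 of 20606 genes at each day by both tools, and at an unadjusted p under 0.05 for 371, 1869 and 882 genes at days 2, 5 and 7; Fabp1 at day 5 was the 1 such gene of the 10. The difference was above 0 for 10, 2 and 4 of the 10 genes at these days, with medians of 0.28, -0.09 and -0.03 beside 0.00, 0.01 and -0.03 over all genes.

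Among untreated mice Cidec, a protein of the lipid droplet surface, was the 1 gene of the 10 called between day labels: it was higher at day 7 than at day 5, where 21.6% of all genes were called and 10.2% were called higher. Untreated mice of day 7 had 4.68, 3.31 and 10.2 CPM of Cidec in the KO and 5.26, 4.21 and 12.2 CPM in the control genotype. At day 5 they had 4.36, 3.3 and 4.34 CPM in the KO and 3.13, 3.16 and 3.84 CPM in the control genotype. The groups overlapped, and at day 7 replicate 3 of each genotype lay far above the rest. The log2 difference was 0.85 ± 0.28 (edgeR adjusted p = 0.0261), and 0.55 without replicate 3 of the control mice of day 7 (adjusted p = 0.15), as it was without replicate 3 of the KO mice (0.165). The call was also lost without replicate 1 of the control mice of day 5, the library that stood apart (0.83, adjusted p = 0.0524), without replicate 2 of those mice (0.83, 0.0644) and without replicate 2 of the KO mice of day 5 (0.79, 0.0604), and with the compared groups fitted alone (0.86, 0.0521).

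Fat cell markers were higher beside Cidec. The 9 markers named above summed to 16.1 to 47.2 CPM in untreated mice of day 7 and 10.3 to 17.3 CPM in those of day 5, and 3 of the 7 tested rose: Adipoq by 1.40 ± 0.34, Plin1 by 1.20 ± 0.33 and Cfd by 1.79 ± 0.41 (edgeR adjusted p = 0.0042, 0.0105 and 0.00285). Elovl3 had 3 reads and Lep 66 over all libraries. Their part in the difference of Cidec was not tested. Against day 2 the difference of Cidec at day 7 was 0.72 ± 0.27 (edgeR adjusted p = 0.0736). None of the 10 genes was called there by edgeR, which called 13.8% of all genes, and DESeq2 called 1 of the 10. At an unadjusted p under 0.05 there were 3 of the 10, and 28.9% of all genes. None was called between day 5 and day 2 by either tool, where edgeR called 0.476% of all genes. At an unadjusted p under 0.05 there was 1 of the 10, and 10.2% of all genes. All these contrasts share untreated groups, and in each of them day label and library letter cannot be told apart.

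Over the 35 libraries the levels of the 10 genes were positively correlated. Pearson's r of log2 CPM was above 0 in all 45 pairs, with a median of 0.42 and 16 pairs above 0.5. The closest pair was Ear1 and Ear2 (0.80), whose reads may be shared, followed by Atp6v0d2 with Pparg and with Marco (0.72 each). Abcg1 had r of 0.04 with Atp6v0d2, 0.05 with Krt79 and 0.14 with Marco, and its closest partner was Cidec (0.61). After the group means were removed the median r was 0.45 (0.10 to 0.79). These values describe libraries that share depth and composition, and they carry no test.

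The mean standardised level of the 10 genes was 1.47 in replicate 2 of the control mice and 1.25 in replicate 3 of the KO mice at day 5 after naphthalene, but -0.55 in replicate 1 of those KO mice. The lowest value was -1.3, at day 2 in untreated control replicate 3. High and low libraries thus stood within 1 group, and naphthalene and untreated libraries overlapped.

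**Figure D3:**
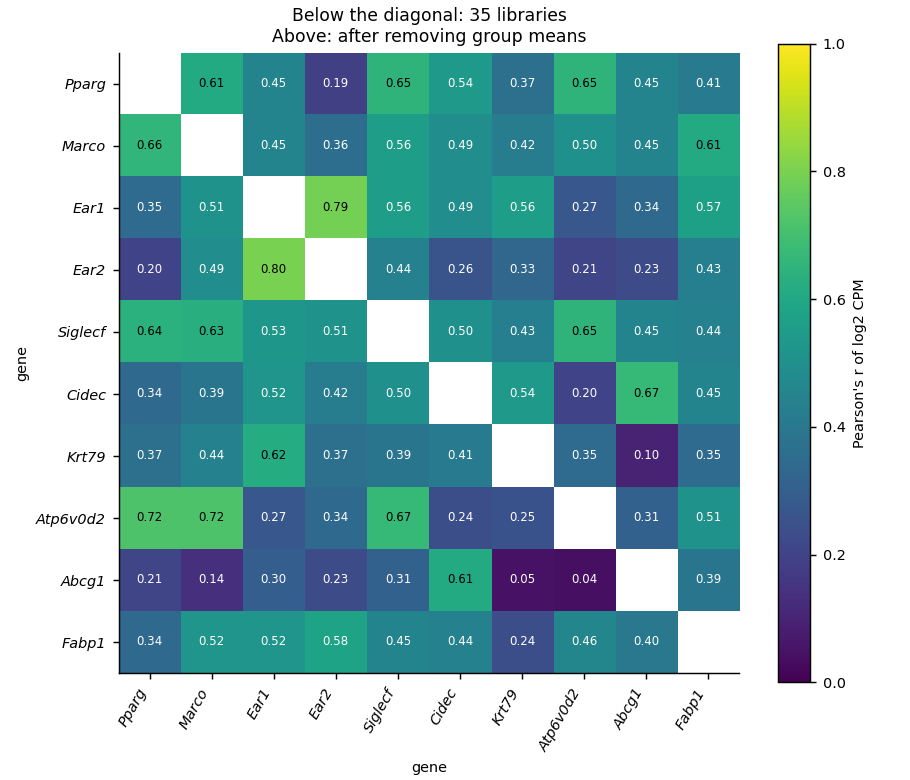
Pearson's r of log2 CPM between the 10 genes (both axes), below the diagonal over 35 libraries and above it after group means were removed; colour runs from 0 to 1. Ear1 and Ear2 reach 0.80 and 0.79, and Abcg1 with Atp6v0d2 has 0.04 below the diagonal and 0.31 above it.

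The 8 other genes closest to the mean standardised level of the 10, among 16131 genes averaging 1 CPM or more, were Creg1 (r = 0.83), Plet1 (0.80), Gsta4 (0.79), Fpr1 (0.77), Sulf2 (0.77), Pik3ap1 (0.76), Serping1 (0.76) and Hacd2 (0.76). Plet1 stands on the list of other alveolar macrophage genes. Below these 8 in rank, the surfactant protein genes Sftpa1 and Sftpd, singled out after their values were seen, had r of 0.73 each. For comparison, the 10 genes themselves, each of which enters the mean, had r from 0.48 (Abcg1) to 0.81 (Siglecf). Ranked with all genes compared, Siglecf was 2, Marco 4 and Ear1 6, whereas Krt79 was 492 and Abcg1 1547.

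As the levels of the 10 genes were correlated, the 250 bases before their transcription starts were searched on both strands for letters that macrophage and lipid regulators are known to bind. RefSeq promoter windows on GRCm38.p6 were at hand for 8 of the 10 genes (not Abcg1 and Atp6v0d2), 11 windows in all. GAGGAAG, a purine tract of the kind bound by PU.1, the master regulator of macrophages, was in 3 of 11 windows, those of Marco, Siglecf and Fabp1, and in 10.6% of 32851 mouse windows of the same length. AGGTCA, the half-site of nuclear receptors such as PPAR-gamma, was in 3 of 11 (1 of Fabp1 and 2 of Pparg) and in 14.0% of all. The direct repeat AGGTCANAGGTCA, which holds the half-site at both ends, was in 0 of 11 and in 0.0335% of all, and CACGTG, an E-box, in 0 of 11 and in 6.02%. These are matches of letters, not binding sites. The 3 stretches with the purine tract are shown along each gene's strand, with the match in capitals. In Siglecf it lies on the other strand, so that CTTCCTC is read. They start 203, 123 and 120 bases before the start of Marco (chr1:120505108-120505227, minus strand), Siglecf (chr7:43351218-43351337, plus strand) and Fabp1 (chr6:71199759-71199878, plus strand).
Marco: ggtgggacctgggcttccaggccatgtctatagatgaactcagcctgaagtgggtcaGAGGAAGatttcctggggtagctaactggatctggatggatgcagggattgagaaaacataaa
Siglecf: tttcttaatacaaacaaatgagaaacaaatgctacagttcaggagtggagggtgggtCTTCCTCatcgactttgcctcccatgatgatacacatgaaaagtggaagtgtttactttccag
Fabp1: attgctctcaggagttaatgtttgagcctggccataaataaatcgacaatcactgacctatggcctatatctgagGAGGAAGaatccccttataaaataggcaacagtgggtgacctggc

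Other genes by which alveolar macrophages are known were also measured. Of 23 tested from a list of 24, 9 rose at day 2 after naphthalene and 1 fell (median log2 change 0.29). Of all genes tested 5.6% were called higher at day 2 and 4.34% at day 5. Chil3, a secreted chitinase-like protein, rose most: it averaged 358 ± 78.8 CPM in KO and 330 ± 78.9 CPM in control mice after naphthalene, and 63.6 ± 21.5 CPM in untreated KO and 58.5 ± 17.5 CPM in untreated control mice (SD, n = 3 each). Its log2 change was 2.50 ± 0.25 (edgeR adjusted p = 2.46e-08). The others that rose were Ear6, Lpl, Fabp4, Htr2c, Nceh1, Plet1, Rufy4 and Mrc1, by 0.57 to 1.74, among them the lipase Lpl (1.57 ± 0.28) and the fatty acid carrier Fabp4 (0.98 ± 0.18). Fat cells, whose markers at day 2 are given below, also use Lpl and Fabp4, and their part was not tested. Itgax, the integrin CD11c, which dendritic cells also carry, fell by 0.47 ± 0.15 (adjusted p = 0.0362), a call lost without the filter and in 7 of the fits that left out 1 library. The 2 most abundant, Cd36 and Cd9, which other lung cells share, changed by 0.37 ± 0.20 and 0.30 ± 0.11 and were not called. The count of genes called higher was 5 without replicate 1 of the control mice after naphthalene.

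At day 5, 5 of these 23 genes rose and none fell (median 0.37): Chil3 by 1.42 ± 0.24, Fabp5 by 1.15 ± 0.26, Plet1 by 1.07 ± 0.20, Ctsk by 0.90 ± 0.16 and Nceh1 by 0.71 ± 0.20. Without the library that stood apart 4 rose, and 8 without replicate 1 of the KO mice after naphthalene. At day 7 none was called by edgeR or DESeq2 (2 with an unadjusted p under 0.05), the median was 0.16, and Chil3 stood at 0.84 ± 0.25 (edgeR adjusted p = 0.216). Of 10 markers of macrophages in general, Cd14 was called at day 2 (0.78 ± 0.22) and Cd14 and Lyz2 at day 5 (0.78 ± 0.22 and 0.76 ± 0.20). Lyz2, which averaged 4040 CPM over all libraries, is also expressed by the surfactant-making cells of the alveoli. The list medians were -0.10 at day 2 and -0.13 at day 5. The day 5 median was 0.42 in KO mice, with 10 of 10 genes above 0, and -0.54 in control mice (1 of 10 called lower), whose untreated group holds the library that stood apart. Without that library the day 5 median was 0.42 over both genotypes and 0.42 in control mice, the sign having turned in both, and 1 of these 10 genes was called. Laptm5, abundant in all white blood cells, changed by -0.07 ± 0.20 at day 2 and by -0.11 ± 0.20 at day 5, and by 0.14 ± 0.19 at day 5 without the library. Without other single libraries 0 to 3 of the 10 were called at day 5. Of 11 tested genes of interstitial macrophages, the macrophages of the lung tissue between air spaces, none was called at any day by edgeR or DESeq2 (1, 2 and 0 with an unadjusted p under 0.05), with medians of -0.30, -0.26 and 0.15 at days 2, 5 and 7. The day 5 median of these 11 was 0.22 in KO mice and -0.55 in control mice, and without the library that stood apart it was 0.25 over both genotypes and 0.20 in control mice, again with the sign turned. For the 10 genes the day 5 median was 0.57 with and without that library. Whether these lists differ from the 10 genes was not tested.

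Genes that make or answer the signals of alveolar macrophage development were mostly not called. Of 15 (among them Csf2, which encodes GM-CSF, its receptor chains, Tgfb1 and its receptors, Spi1 and Bhlhe41), 0 were called at days 2 and 7 by edgeR or DESeq2 (3 and 1 with an unadjusted p under 0.05), and 1 at day 5, the growth factor Csf1 (0.43 ± 0.13; edgeR adjusted p = 0.0352). Without the library that stood apart none of the 15 was called at day 5. Csf2 changed by 0.11 ± 0.21, 0.45 ± 0.21 and -0.07 ± 0.22 at days 2, 5 and 7, and the abundant Tgfbr2 and Cebpb by 0.47 ± 0.18 and -0.17 ± 0.26 at day 2. Of 18 genes of lipid handling, 4 rose at day 2: Pdk4, which turns cells from glucose to fatty acids, by 1.47 ± 0.33, Pnpla2 by 0.68 ± 0.17, Npc2 by 0.64 ± 0.19 and Ucp2 by 0.60 ± 0.17, and at day 5 Npc2, a lysosomal cholesterol carrier, by 0.81 ± 0.19. Of 10 other scavenger and uptake receptors, 3 rose at day 2, Cd163 by 1.14 ± 0.26, Cd300lf by 0.92 ± 0.18 and Axl by 0.40 ± 0.13, and Cd163 by 1.00 ± 0.26 at day 5. Beside these counts, 5.6% of all genes were called higher at day 2 and 4.34% at day 5. With 1 library left out, 2 to 5 genes of lipid handling and 2 to 3 receptors rose at day 2, and 0 to 4 and 0 to 3 at day 5. None on these 3 lists was called at day 7 by edgeR or DESeq2, with 1 regulator, 1 gene of lipid handling and 3 receptors at an unadjusted p under 0.05.

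**Figure D4:**
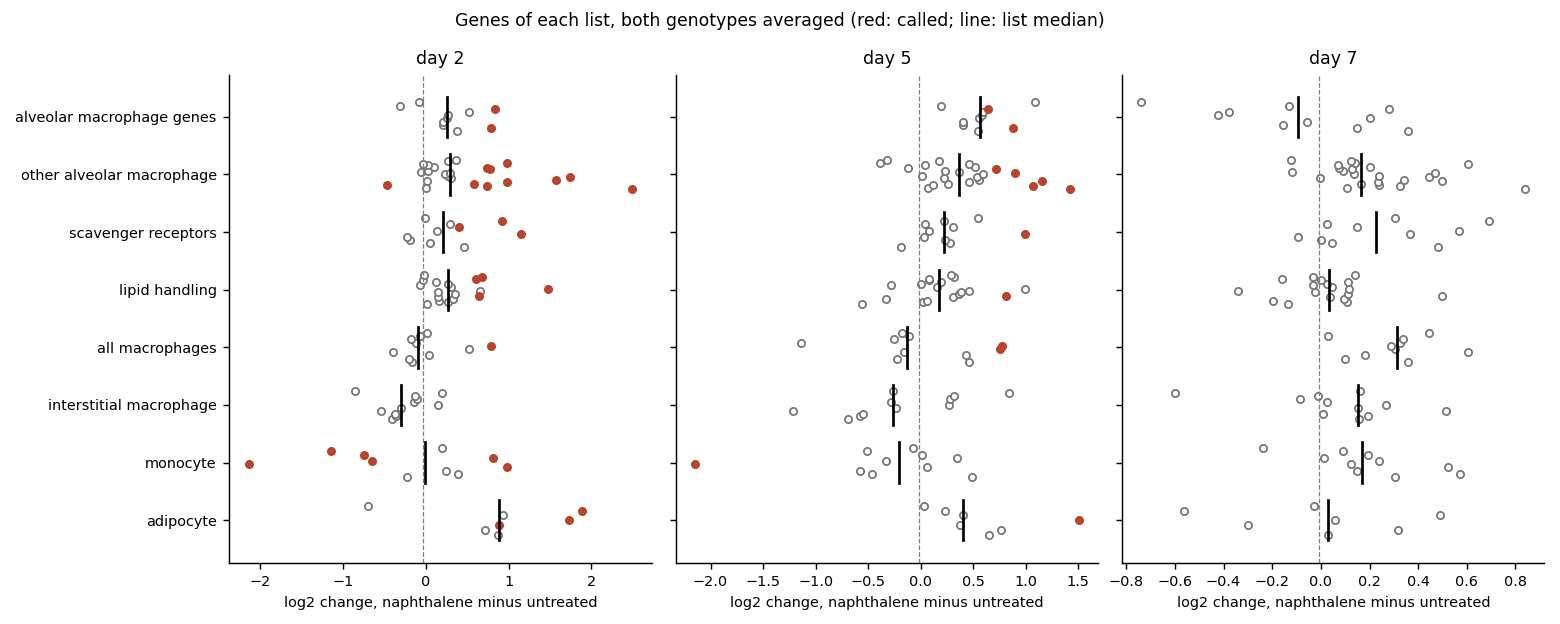
Log2 change after naphthalene, both genotypes averaged (x axis), of each gene on 8 lists (y axis) at days 2, 5 and 7; red points passed an adjusted p of 0.05, black lines are list medians and the dashed line is the median of all genes. The 10 genes have medians of 0.26, 0.57 and -0.10, and the other alveolar macrophage genes reach 2.50 with Chil3 at day 2.

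Other cells that use Cidec, Pparg, Atp6v0d2 or Krt79 were followed by their own markers at day 2. Fat cell markers summed to 19.9 to 28.1 CPM after naphthalene and 8.2 to 16.8 CPM in untreated mice without overlap. Plin4, Cfd and Cidea were called higher (3 of 7 tested), as were 5.6% of all genes. The 5 osteoclast markers (Acp5, Ocstamp, Dcstamp, Calcr and Oscar), a cell type that also uses Atp6v0d2, summed to 12.8 to 16.2 CPM after naphthalene and 8.14 to 17 CPM in untreated mice, and neither of the 2 tested was called by edgeR or DESeq2, nor had an unadjusted p under 0.05. Dcstamp had 71 reads in all. Keratinocyte markers, of which 6 were in the table (Krt1, Krt10, Krt5, Krt14, Flg and Dsg3), summed to 5.17 to 6.97 CPM after naphthalene and 5.81 to 7.37 CPM in untreated mice. Of the 4 tested, Krt5 and Krt14, also of airway basal cells, rose by 3.63 ± 0.73 and 3.63 ± 0.70, and Krt10 fell by 0.66 ± 0.17. Reads were few, with 159 for Krt5, 128 for Krt14 and 3 for Dsg3 over all 35 libraries. Untreated mice of day 2 averaged 0.0973 CPM of Krt5 in the KO and 0.0681 CPM in the control genotype, and 0.0427 and 0.0529 CPM of Krt14. The part of these markers in the values of the 10 genes was not tested.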

How the data were processed

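The authors deposited unnormalised counts per gene for 35 libraries. Per the labels' protocols, RNA came from Trizol extraction of whole-lung homogenate and libraries from an mRNA kit; per the submitters' processing notes, GRCm39 and DESeq2 were used, with no role given (aligner and counter: not given in the sources used here). With R 4.3.3, edgeR 4.0.16 (limma 3.58.1), counts were filtered with filterByExpr (20606 genes kept), scaled by TMM and fitted as 12 group means, with common biological coefficient of variation 0.222 and 23 residual degrees of freedom. Each contrast was tested two-sided by edgeR's quasi-likelihood method, with p-values adjusted after Benjamini and Hochberg across the 20606 genes; a gene is called at an adjusted p under 0.05. Comparisons over both genotypes average the genotypes' contrasts. CPM use TMM factors; log2 CPM use a prior count of 2. The code was tested on simulated data. Alternatives were DESeq2 1.42.0, RLE factors, no filter, the compared groups only, a replicate block, library name letters and leaving out each library. The 10 genes and all lists were chosen with earlier results of these data known. Named genes are all 10, and of other lists the most significant gene either way and the 2 most abundant; other list genes, given because they were called, and markers singled out were chosen after their values were seen. Counts and medians of list genes without 1 library were added after seeing the data.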

Additional observations from a re-analysis of the deposited data

How the results depend on the processing

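The number of the 10 genes called depended on the setting, and the cause was not tested. It moved without the filter to 1 for control mice at day 2, 2 for KO mice at day 2, 3 for control mice at day 5, 1 for the genotype difference at day 5 (Fabp1, -2.25, adjusted p = 0.0385) and 2 for untreated day 7 against day 2. With the compared groups only it was 2 for KO mice at day 2 and 0 for control mice at day 5, both genotypes at day 5 and untreated day 7 against day 5. DESeq2 gave 2 for KO mice at day 2, 2 for control mice and 4 for both genotypes at day 5, and 1 for untreated day 7 against day 2; RLE factors gave 1 for KO mice at day 2. With 1 library left out at a time it ran from 1 to 2 for both genotypes at day 2, 0 to 6 for both at day 5, 0 to 3 for control mice at day 5, 0 to 2 and 0 to 1 for KO mice at days 2 and 5, and 0 to 1 and 0 to 3 for untreated day 7 against days 2 and 5; it was 0 throughout elsewhere. The number called over all genes moved too. In control mice at day 2 the 774 called became 1131 without the filter. In KO mice at day 2 the 565 called became 1056 without the filter, 261 with the compared groups only, 818 with DESeq2 and 573 with RLE factors. The 492 called in control mice at day 5 became 26 with the compared groups only, 2118 without the filter, 1329 with DESeq2 and 23 without the library that stood apart. The 1476 of both genotypes at day 5 became 605 with the compared groups only, 2164 with DESeq2 and 680 without that library.

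The replicate block kept 2 called genes for both genotypes at days 2 and 5 and changed no other call of the 10. It moved called genes of the lipid list at day 5 to 2, against 1. Same-numbered naphthalene and untreated libraries of a genotype and day did not deviate together (r of -0.3 to 0.16 over 17 pairs). KO and control libraries of the same number were not compared, and the labels do not say whether the numbers pair mice.

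Uncalled values changed sign when 1 library was left out, 47 values, 137 times in all, none of them called. Not all were near 0 with every library in the fit. Krt79 stood at 0.454 in control mice at day 2 and Fabp1 at -0.425 in KO mice at day 7. The genotype difference of Cidec at day 7 stood at -0.548. After naphthalene in control mice at day 2 the values that turned ran from -0.12 to 0.23 (Ear1), -0.02 to 0.22 (Ear2), -0.22 to 0.19 (Siglecf), -0.36 to 0.09 (Cidec) and -0.11 to 0.77 (Krt79). In control mice at day 7 they ran from -0.27 to 0.02 (Ear1), -0.28 to 0.1 (Ear2), -0.44 to 0.45 (Cidec), -0.29 to 0.38 (Krt79) and -0.47 to 0.11 (Atp6v0d2). KO mice gave -0.67 to 0.87 (Fabp1) at day 5, and -0.66 to 0.15 (Ear1), -0.26 to 0.07 (Ear2), -0.04 to 0.41 (Siglecf) and -0.76 to 0.52 (Fabp1) at day 7. Both genotypes gave -0.29 to 0.11 (Fabp1) at day 2, and -0.39 to 0.02 (Ear1) and -0.18 to 0.02 (Ear2) at day 7. KO minus control in untreated mice ran from -0.07 to 0.05 (Siglecf), -0.23 to 0.03 (Krt79), -0.12 to 0.01 (Abcg1) and -0.3 to 0.17 (Fabp1). The genotype difference ran from -0.19 to 0.71 (Krt79), -0.02 to 0.29 (Atp6v0d2) and -0.08 to 0.29 (Abcg1) at day 2. At day 5 it ran from -0.38 to 0.37 (Marco), -0.34 to 0.16 (Ear1), -0.31 to 0.01 (Ear2), -0.36 to 0.24 (Siglecf), -0.22 to 0.49 (Cidec) and -0.32 to 0.08 (Abcg1). At day 7 it ran from -0.54 to 0.26 (Ear1), -0.22 to 0.2 (Ear2), -0.26 to 0.2 (Siglecf), -1.15 to 0.07 (Cidec) and -0.1 to 0.08 (Abcg1). Untreated day 5 against day 2 gave -0.23 to 0.06 (Marco), -0.08 to 0.17 (Atp6v0d2) and -0.28 to 0.38 (Fabp1), day 7 against day 5 -0.06 to 0.16 (Pparg) and -0.08 to 0.3 (Krt79), and day 7 against day 2 -0.31 to 0.09 (Krt79) and -0.12 to 0.07 (Abcg1). The naphthalene effect at day 5 minus day 2 gave -0.14 to 0.24 (Marco) and -0.09 to 0.35 (Krt79), and at day 7 minus day 2 -0.13 to 0.09 (Pparg) and -0.16 to 0.05 (Siglecf). Of the other settings, the replicate block turned Fabp1 in KO mice at day 5 to 0.01 and the genotype difference of Marco at day 5 to 0 after rounding, and the library letter turned that of Ear2 to 0.01 and that of Cidec to -0.20, none called.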
